A study of Mus musculus with 8 samples.

Results

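Rbm3 and Cirbp, the mouse genes of the cold-inducible RNA-binding proteins RBM3 and CIRBP, were 2 of the 17143 genes in a single-cell RNA sequencing table of the hippocampus. They were selected by name, after their levels in lead-exposed and control mice of these same samples were known, so their Pb-against-control values are given as a description without a test. The table held cells of 8 mice. In the Pb group (2 females and 2 males), the dams drank water with 32 ppm lead acetate from 2 weeks before mating until the end of lactation. The control dams (2 female and 2 male offspring) had no lead in the water. The dams of both groups were listed with an age of 5 weeks. All 8 mice were a/a (wild-type) offspring of a/a parents, lived on lead-free water after weaning and were killed at 5 months. One male and 1 female were kept per litter, but the labels tie no mouse to a litter, so mice of a group may share a dam. Lead reached the mice before and shortly after birth only, and the measurement was made in adults.

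RBM3 and CIRBP are small proteins with a single RNA recognition motif followed by a glycine-rich tail. Their transcripts and proteins accumulate in cells kept a few degrees below body temperature and decline in cells that are warmed, and both proteins bind other messenger RNAs and alter their stability, translation or polyadenylation. In the brain RBM3 is known for preserving synapses after cooling. CIRBP is known for stabilising clock transcripts and, when released from cells, for activating the innate receptor TLR4. The handling of the tissue is given for that reason. After a saline perfusion, the labels describe enzymatic dissociation of the hippocampus in a heated instrument, then freezing and thawing of the cells before 10x Chromium capture, for both groups alike.

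On the mouse build GRCm38, Rbm3 lies on chromosome X from 8138975 to 8145880 on the minus strand, and Cirbp on chromosome 10 from 80165985 to 80172786 on the plus strand. GENCODE gives 11 transcripts of Rbm3 and 7 of Cirbp, and the counts did not separate them. No run longer than 11 bases was shared by any transcript of Rbm3 and any of Cirbp, so a read of usual length could not have come from both. The processed pseudogene Rbm3-ps, on chromosome 1 from 150265535 to 150265999, shared 85.5% of its 31-base words with Rbm3 transcripts and a run of 197 bases. Rbm3-ps had no row in the table, and reads that fit both copies make the Rbm3 count uncertain to an unknown degree. The antisense gene Rbm3os overlaps 452 bases of Rbm3. The sources used here do not say whether counting used strand. Rbm3os had 10 UMIs (unique molecular identifiers, each 1 counted transcript molecule) over all mice, against 8258 for Rbm3 and 6113 for Cirbp.

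The flank of Cirbp is shown because a cold response element was described there. The bases come from the RefSeq promoter table for GRCm38.p6, chr10:80167589-80167777, plus strand, and end where an annotated exon starts. The printed bases lie in the first intron of 1 longer GENCODE transcript of Cirbp and upstream of the others. Capitals mark the letters TCCCCGCC, the mild-cold-responsive element, at its single match, and the GC box GGGCGG or its reverse complement at the other capitals.

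Cirbp flank: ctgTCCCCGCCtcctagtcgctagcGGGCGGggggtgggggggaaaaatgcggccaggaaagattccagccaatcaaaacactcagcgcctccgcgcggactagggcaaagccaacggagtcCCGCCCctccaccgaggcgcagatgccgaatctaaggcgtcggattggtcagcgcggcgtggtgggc

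TCCCCGCC began 247 bases before the RefSeq start of Cirbp at 80167839 and was found on either strand in 4.64% of the 32851 promoter windows of 250 bases. GGGCGG matched 3 times in the window of this start, 2 of them in the printed bases, and it was present in 32.7% of all windows. The CCAAT box, written CCAAT or ATTGG, matched 2 times and was present in 33.8% of windows. Searches of both strands found no match of GAANNTTC, a core of the heat shock element that 6.69% of windows held, or of the E-box CACGTG that 6.02% held, in this window or in that of the second Cirbp start. No 2 of the matches in the printed bases overlapped. A match says only that these letters are in the window.

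Of 5258 deposited cells, 5175 were analysed, from 211 to 1157 per mouse, with totals of 1749079 to 8508064 UMIs per mouse. Every Pb mouse but 1 had more cells than any control mouse. The labels give no batch or day. In all, 32 cell barcodes occurred in 2 or more libraries, which touched 91 cells. A doublet caller marked 33 cells (0.628%), and 30 of them were removed beyond those lost to a filter on mitochondrial share. Cells were clustered without Rbm3, Cirbp or the genes of the lists used below, and clusters were named by markers. Cluster 7 (202 cells) carried both pericyte and endothelial markers and cluster 9 (170 cells) haemoglobin and oligodendrocyte-lineage genes, and both kept their numbers. Cluster 15, of 83 Oligodendrocyte-like cells, came largely from control M2 (68 cells), so the levels, class comparisons and fold changes of that class are also given without it. Neuron-like cells (110) were led by Nhlh2, Reln and Lhx1, which are markers of Cajal-Retzius cells.

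The level of both genes was taken in the 11 classes that at least 3 mice filled, and the order of the classes was a different one for each gene. Levels are CPM (counts of the gene scaled to a fixed total of UMIs, the same in every library) of the summed cells of 1 mouse in 1 class, for mice with at least 10 cells, and the order was taken from the mean of log2(CPM + 5). T or NK cell-like cells and cluster 21 had fewer than 10 cells in every mouse and gave no level. Some means mix unequal numbers of Pb and control mice, so the order can depend on which mice filled a class. Oligodendrocyte precursor-like cells had 4 Pb and 1 control mice, Pericyte-like 3 and 1, cluster 9 4 and 2, and Choroid plexus-like 1 and 2. The highest mean of Rbm3 was 282 ± 54.5 CPM in Endothelial-like cells (SD, n = 8), followed by 270.0 ± 61.4 CPM in cluster 7 (n = 8). Next in the order it stood at 262 ± 77.4 CPM in Neuron-like cells (n = 6) and at 254 ± 58.7 CPM in Microglia-like cells (n = 8). Pericyte-like (254, n = 4), Smooth muscle-like (241, n = 7) and Oligodendrocyte precursor-like cells (239.5 CPM, n = 5) and cluster 9 (244, n = 6) had means between those of Microglia-like and Choroid plexus-like cells. The lowest means were those of Choroid plexus-like (154 ± 34.7 CPM, n = 3), Oligodendrocyte-like (159.9 ± 64.8 CPM, n = 8) and Astrocyte-like cells (145 ± 32.1 CPM, n = 6).

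For Cirbp the order was led by Neuron-like cells at 457 ± 151 CPM (SD, n = 6), with a lowest value of 256, a median of 463 and a highest of 661 CPM. Cells of the oligodendrocyte lineage followed, at 243 ± 93.6 CPM in Oligodendrocyte precursor-like (n = 5) and 213 ± 57.7 CPM in Oligodendrocyte-like cells (n = 8), with Pericyte-like cells at 228 ± 116 CPM (n = 4) between them. The mean was 154 ± 50.3 CPM in cluster 7 and 143 ± 43.8 CPM in Endothelial-like cells (n = 8 each). In Astrocyte-like cells it was 140.3 ± 62.7 CPM (n = 6). The remaining means ran from 116 CPM in Choroid plexus-like (n = 3) through 119.8 in Smooth muscle-like (n = 7) and 122 in cluster 9 (n = 6) to 123 CPM in Microglia-like cells (n = 8). Oligodendrocyte-like cells, near the bottom of the order for Rbm3, were thus near the top of the order for Cirbp.

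Neighbours in either order were compared within mice by an exact two-sided sign-flip permutation test over 20 pairs. With these numbers of shared mice the smallest adjusted p that any pair could reach was 0.0521, so no pair could pass 0.05 and the test says nothing on whether neighbours differed. As values, Cirbp was higher in Oligodendrocyte-like cells than in cluster 7 in 8 of 8 mice, by 0.48 log2 units (SD 0.21, exact p = 0.0078, the smallest that 8 mice allow). Some neighbours stood the other way round within mice. Choroid plexus-like cells, placed above Oligodendrocyte-like cells for Rbm3, were higher in 0 of 3 shared mice (mean -0.27 log2 units, SD 0.09). For Cirbp they were placed above cluster 9 and were higher in 0 of 3 (-0.60, SD 0.19). A further comparison, added after the data were seen, took all 12 pairs of the 4 classes that every mouse filled (Endothelial-like, Microglia-like, Oligodendrocyte-like and cluster 7). Rbm3 was lower in Oligodendrocyte-like cells than in each of the other 3, in 8 of 8 mice each time, by 0.89 log2 units against Endothelial-like (SD 0.39), 0.81 against cluster 7 (SD 0.39) and 0.73 against Microglia-like cells (SD 0.29; adjusted exact p = 0.0134 each). For Cirbp the same class was higher than each of the other 3 in 8 of 8 mice, by 0.57 log2 units against Endothelial-like (SD 0.19), 0.48 against cluster 7 and 0.78 against Microglia-like cells (SD 0.26; adjusted exact p = 0.0134 each). Both genes were lower in Microglia-like than in Endothelial-like cells, Rbm3 by 0.16 (7 of 8 mice) and Cirbp by 0.21 log2 units (6 of 8 mice; adjusted exact p = 0.0417 each). Cirbp was also higher in cluster 7 than in Microglia-like cells, by 0.29 log2 units in 8 of 8 mice (adjusted exact p = 0.0134). Cluster 7 and Endothelial-like cells were not separated for either gene (Rbm3 0.07, SD 0.19; Cirbp 0.09 log2 units, SD 0.28), nor were cluster 7 and Microglia-like cells for Rbm3 (0.08 log2 units, SD 0.25; adjusted exact p = 0.375). Without cluster 15 the Oligodendrocyte-like means were 159 ± 67.2 CPM for Rbm3 and 212 ± 61.3 CPM for Cirbp (n = 8). The 6 differences of that class then ran from 0.74 to 0.90 log2 units below the others for Rbm3 and from 0.47 to 0.77 above them for Cirbp, in 8 of 8 mice each (adjusted exact p = 0.0134 each).

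**Figure D1:**
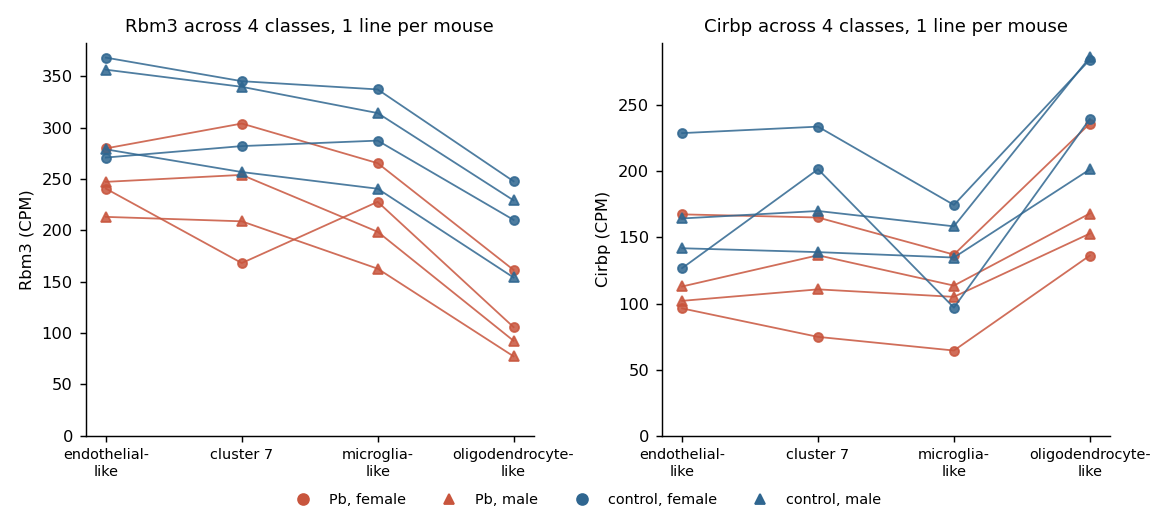
Level of Rbm3 (left) and Cirbp (right) in CPM in the 4 classes that all 8 mice filled, with 1 line per mouse, coloured by group and with markers by sex. In each of the 8 mice Rbm3 was lower, and Cirbp higher, in Oligodendrocyte-like cells than in the other 3 classes.

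Across classes the genes did not track each other: the Pearson correlation of their mean log2 levels over 11 classes was 0.18. This is a description of 11 points that share mice and libraries. Oligodendrocyte markers were counted outside their class too: the summed level of 20 of them was 4310 to 9575 CPM in Endothelial-like cells against 78838 to 91764 CPM in Oligodendrocyte-like cells. The source of these UMIs, and its part in the class differences of Rbm3 and Cirbp, was not tested.

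Between exposure groups, Rbm3 was lower in Pb than in control mice in 7 of 8 units (7 classes or clusters and all cells of a mouse), and Cirbp in 8 of 8. The medians of the log2 fold changes, Pb minus control, were -0.43 for Rbm3 and -0.47 for Cirbp, beside a median between -0.02 and -0.0012 over all genes tested in each of these units. In none of the units did the groups stand fully apart. As background, every Pb mouse was below every control mouse in 1.6% of the 53420 tests of a gene in a unit. The edgeR quasi-likelihood fit, with sex as a covariate, called 1 gene at an adjusted p under 0.05 in all these tests together (0.00187%), and that gene was neither Rbm3 nor Cirbp. The number of calls was 1 without control M1 and from 2 to 16 without 1 of the other mice (Pb F1 9, Pb F2 9, Pb M1 16, Pb M2 5, control F1 2, control F2 3, control M2 14). These figures place the values that follow, which chose the genes.

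Oligodendrocyte-like cells had the lowest fold change of Rbm3. The 4 Pb mice had 162 (F1), 106 (F2), 92.5 (M1) and 77.4 CPM (M2), from 410, 80, 191 and 126 UMIs of the gene. The control mice had 210.3 (F1), 248 (F2), 229 (M1) and 154 CPM (M2), from 72, 231, 117 and 111 UMIs. This placed 3 of the Pb mice below all controls, and the groups overlapped because Pb F1 exceeded control M2. The group means were 109 ± 36.7 and 210.4 ± 40.5 CPM (SD, n = 4 each), a level 48.1% lower in Pb mice, and the fitted log2 fold change was -0.95 (SE 0.17). Of 7972 genes tested in this class, 17 had a lower fold change. Without cluster 15 the fold change was also -0.95 (SE 0.18).

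Cirbp in the same cells stood at 236 (F1), 136 (F2), 168 (M1) and 153 CPM (M2) in the Pb mice. The controls had 239.5 (F1), 284 (F2), 286 (M1) and 201 CPM (M2). Again 3 Pb mice were below all controls and Pb F1 was above control M2. Group means were 173 ± 43.8 and 253 ± 40.5 CPM (n = 4 each), 31.5% lower in Pb mice, with a log2 fold change of -0.54 (SE 0.16; -0.54 without cluster 15 too). There were 208 genes with a lower fold change, against 901 of 12989 in all cells and 736 of 2790 in Astrocyte-like cells.

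Microglia-like cells are named for the macrophages that reside in brain tissue. Their Rbm3 level stood at 266 (F1), 228 (F2), 199 (M1) and 163 CPM (M2) in the Pb mice. The controls had 287.5 (F1), 337 (F2), 314 (M1) and 241 CPM (M2). Only Pb F1 reached into the control range. The means of 214 ± 43.6 and 295 ± 41.6 CPM (n = 4 each) gave a log2 fold change of -0.47 (SE 0.14). Cirbp had 137, 64.4, 114 and 105 CPM in Pb F1, F2, M1 and M2, and 96.9, 175, 158 and 135 CPM in control F1, F2, M1 and M2. These groups overlapped more, since control F1 was below 3 of the 4 Pb mice, and the log2 fold change was -0.41 (SE 0.21). That Cirbp value was -0.65 without Pb F1, -0.25 without Pb F2 and -0.26 without control F2.

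Vascular classes gave values of like size. In Endothelial-like cells, which line the vessels, Rbm3 was 279.9 (F1), 241 (F2), 247 (M1) and 213 CPM (M2) in Pb mice and 271 (F1), 368 (F2), 357 (M1) and 279 CPM (M2) in controls (log2 fold change -0.40, SE 0.13). Pb F1 alone overlapped the controls. Cirbp was 167, 96.3, 113 and 102 CPM in Pb F1, F2, M1 and M2, against 127, 229, 164 and 142 CPM in the controls in the same order (log2 fold change -0.49, SE 0.18; -0.33 without control F2), with Pb F1 again the mouse inside the control range. In cluster 7 the Rbm3 values were 304, 168, 254 and 209 CPM in Pb mice and 282, 345, 339.9 and 257 CPM in controls (-0.40, SE 0.18). There Cirbp had 165, 74.8, 136.5 and 111 CPM in Pb mice and 202, 234, 170.0 and 139 CPM in controls (-0.58, SE 0.21). For both genes 3 of the 4 Pb mice in cluster 7 were below all controls and Pb F1 was not. Smooth muscle-like cells, measured in 4 Pb and 3 control mice, gave log2 fold changes of -0.47 (SE 0.22) for Rbm3 and -0.38 (SE 0.26) for Cirbp. Their Rbm3 ranges were 168 to 264 CPM in Pb and 189 to 358 CPM in control mice, and those of Cirbp 65.9 to 141 and 134 to 148 CPM. Without control M1 the Rbm3 value was -0.22, and the Cirbp value was -0.19 without Pb M2 and -0.65 without Pb M1.

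**Figure D2:**
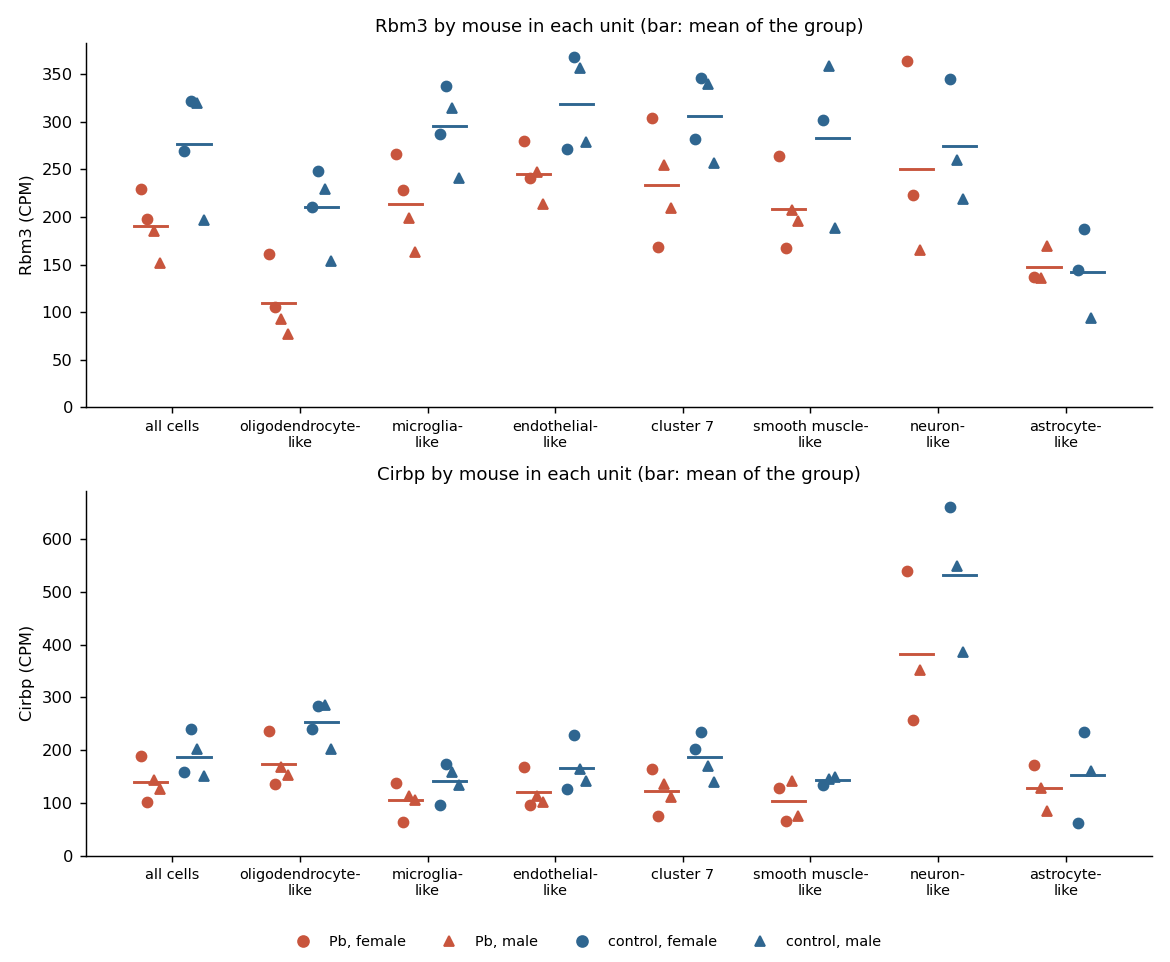
Rbm3 (top) and Cirbp (bottom) in CPM for each mouse, in all cells and the 7 other fitted units, with Pb mice in red, control mice in blue, circles for females, triangles for males and bars at group means. In Oligodendrocyte-like cells 3 of 4 Pb mice lay below all controls for both genes, and in no unit were the groups fully apart.

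Neuron-like and Astrocyte-like cells had 3 mice per group, with 3 to 95 UMIs of a gene per mouse. In Neuron-like cells Rbm3 was 363 (F1), 223 (F2) and 165 CPM (M2) in Pb mice and 345 (F2), 259 (M1) and 219 CPM (M2) in controls, and Cirbp was 539, 256 and 351 CPM against 661, 549 and 386 CPM in those same mice. The ranges overlapped for both genes, with log2 fold changes of -0.35 (SE 0.31) for Rbm3 and -0.55 (SE 0.28) for Cirbp. The Rbm3 value was -0.57 without Pb F1, -0.56 without control F2 and -0.12 without Pb M2. Astrocyte-like cells were the exception in direction for Rbm3. Its levels were 137 (F1), 136 (M1) and 169.8 CPM (M2) in Pb mice and 144 (F1), 188 (F2) and 94.1 CPM (M2) in controls, and the log2 fold change was 0.05 (SE 0.35). Cirbp in these cells had a log2 fold change of -0.27 (SE 0.38), and 1 of its control values, 61.8 CPM in F1, rested on 3 UMIs. Neither sign was stable here: Rbm3 was -0.32 without control M2 and 0.64 without Pb F1, and Cirbp was 0.08 without control F2, -0.02 without control M2, -0.54 without Pb F1 and -0.53 without control F1.

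**Figure D3:**
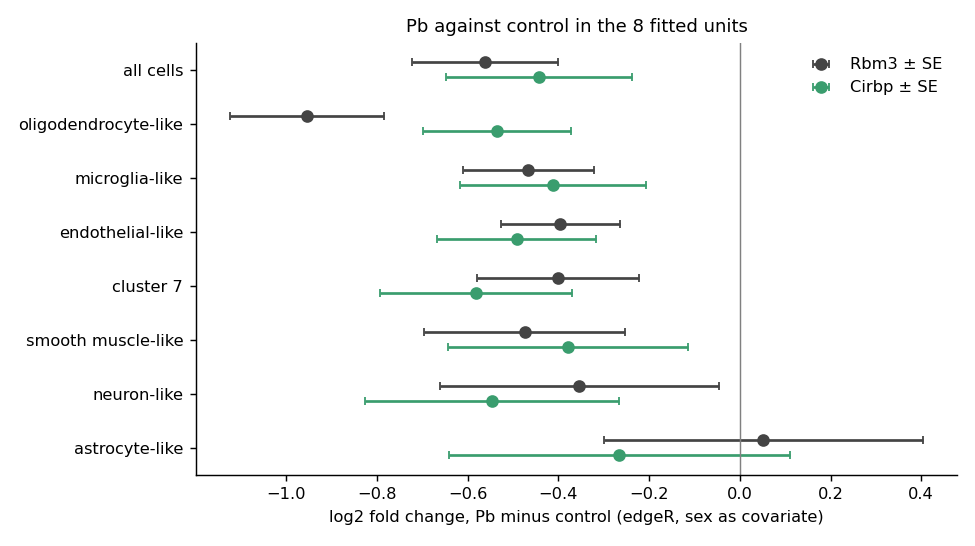
Log2 fold change, Pb minus control, of Rbm3 (grey) and Cirbp (green) with its standard error in all cells and 7 further units, from the edgeR fit with sex as a covariate. Rbm3 in Oligodendrocyte-like cells is lowest at -0.95, and Rbm3 in Astrocyte-like cells is the only value above 0.

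In all cells of a mouse pooled, Rbm3 was 229 (F1), 198 (F2), 185 (M1) and 151 CPM (M2) in the Pb group and 269 (F1), 321 (F2), 319.7 (M1) and 196 CPM (M2) in the control group, a log2 fold change of -0.56 (SE 0.16). Cirbp was 188, 101, 143 and 127 CPM in Pb F1, F2, M1 and M2 and 158, 240.3, 201 and 150.0 CPM in the controls (-0.44, SE 0.21; -0.28 without Pb F2). Control M2 lay below 2 Pb mice for Rbm3. In such a pool, fewer cells of a type and less RNA per cell cannot be told apart. Oligodendrocyte markers moved with the groups in it: their summed level was 27359 to 31043 CPM in Pb and 17991 to 25541 CPM in control mice, with 0 of 20 markers at 0. Their part in the pooled values was not tested.

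Splitting the classes into their clusters, added after the data were seen, gave 11 clusters with at least 3 mice of each group. The difference of mean log2(CPM + 5), Pb minus control, was below 0 in 10 of 11 clusters for Rbm3 (median -0.40, lowest -0.90 in Oligodendrocyte-like cluster 0) and in 11 of 11 for Cirbp (median -0.45). In cluster 0 the Rbm3 range was 78.7 to 159 CPM in Pb and 138 to 264 CPM in control mice. The 138 CPM, of control M2, rested on 8 UMIs in 10 cells. In the second such cluster, cluster 6, the Rbm3 range was 80.7 to 181 CPM in 3 Pb mice and 127 to 218 CPM in 3 controls. The groups did not overlap in 1 cluster for 1 gene: in Microglia-like cluster 8, Cirbp was 105 to 187 CPM in 4 Pb mice and 210.2 to 229 CPM in 3 controls. In that cluster every Pb mouse was below every control mouse for 187 of 7934 genes (2.36%), and over the 11 clusters the share was 2.07%, so 1 of 22 values is near the background. Clusters of the same mice share its library, so they do not add replicates.

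The same mice tended to hold the extremes of their group in class after class. Pb F1 had the highest Pb value in 6 of 7 classes for Rbm3 and in 6 of 7 for Cirbp. Control F2 had the highest control value in 6 of the 6 classes it filled for Rbm3 and in 5 of 6 for Cirbp. Control M2 was lowest of its group for Rbm3 in 6 of 7 classes, whereas for Cirbp Pb F2 was lowest of its group in 6 of 6. The classes of a mouse share 1 dissociation and 1 library.

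Classes with fewer mice were not fitted, and their levels are given as values. In Oligodendrocyte precursor-like cells Rbm3 was 114 to 289 CPM in 4 Pb mice and 339.5 CPM in 1 control mouse, and Cirbp 125 to 319 CPM against 351 CPM. Pericyte-like cells had Rbm3 at 151 to 302 CPM in 3 Pb mice and 366 CPM in 1 control mouse, and Cirbp at 136 to 250.3 CPM against 383 CPM. In both classes the 1 control mouse was F2. In cluster 9 Cirbp was 66.3 to 149 CPM in 4 Pb mice and 162 to 212 CPM in 2 controls, and Rbm3 111 to 385 CPM against 227 to 354 CPM. Choroid plexus-like cells, which secrete cerebrospinal fluid, had Rbm3 at 142 CPM in Pb F1, between the 193 CPM of control F2 and the 127 CPM of control M2. Their Cirbp level was 92.7 CPM in Pb F1, 161 in control F2 and 93.6 CPM in control M2. Fibroblast-like cells were measured in Pb F1 and M1 only, with Rbm3 at 162 and 184 CPM and Cirbp at 256 and 207 CPM. Perivascular macrophage-like cells of the same 2 mice had Rbm3 at 222 and 205 CPM and Cirbp at 88.8 and 102 CPM. Ependymal-like cells, measured in control M2 only, had 120.0 CPM of Rbm3 and 93.4 CPM of Cirbp.

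The sex contrast and the exposure-by-sex contrast were not used to choose the genes and were tested. Rbm3 is X-linked, and its male-minus-female log2 fold change was below 0 in 8 of 8 units, from -0.73 (SE 0.31) in Neuron-like cells to -0.08 (SE 0.18) in cluster 7, with a median of -0.25. These units share the same mice and all cells include the other units, so they are not 8 separate observations. Of all genes tested, 5869 of 12989 were below 0 in all cells and 3981 of 7972 in Oligodendrocyte-like cells. Rbm3 passed in 0 of 8 units by edgeR (smallest adjusted p = 0.950). The unadjusted p was under 0.05 in 3 units, Oligodendrocyte-like (-0.51, SE 0.17), Microglia-like (-0.39, SE 0.14) and Neuron-like cells, beside 4.32% of all tests of this contrast. Without cluster 15 the Oligodendrocyte-like values were -0.54 (SE 0.18) for Rbm3 and -0.25 (SE 0.17) for Cirbp. Female means were 181 ± 61.5 and male means 138 ± 69.2 CPM in Oligodendrocyte-like cells (n = 4 each, both exposure groups together). Cirbp ran from -0.45 to 0.11, was below 0 in 7 of 8 units and passed in 0 (smallest adjusted p = 0.868 by edgeR, and 0 at an unadjusted p under 0.05). DESeq2 and limma-voom also passed Rbm3 and Cirbp in 0 units. The same fit called 48 of 53420 tests (0.0899%), led by Xist, the RNA that silences an X chromosome in females, and by the Y-linked Ddx3y and Eif2s3y in all cells.

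The difference of the Pb effect between the sexes could be fitted in 5 units with 2 mice in each combination. For Rbm3 it was below 0 in 5 of 5 (males minus females), from -0.44 (SE 0.33) in Oligodendrocyte-like cells to -0.05 (SE 0.38) in cluster 7. Cirbp differed by -0.16 to 0.39. Neither gene passed in any unit by edgeR, DESeq2 or limma-voom (smallest edgeR adjusted p = 0.999, and 0 at an unadjusted p under 0.05, beside 3.27% of all tests). Without cluster 15 the Oligodendrocyte-like values were -0.40 (SE 0.36) for Rbm3 and -0.10 (SE 0.36) for Cirbp. In these units 2 of 45751 tests passed (0.00437%), Slc1a2 and Hbb-bs in cluster 7. As plain values, Rbm3 in Oligodendrocyte-like cells averaged 134 CPM in 2 Pb and 229 CPM in 2 control females, and 84.9 CPM in 2 Pb and 192 CPM in 2 control males. Cirbp averaged 186 and 262 CPM in those females and 160.5 and 244 CPM in those males. Pb means were the lower ones in both sexes for both genes in all 5 units. That count only describes the contrast that chose the genes. The units share the same mice, all cells include the other units, and the share over all genes was not computed.

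Within classes and groups, the 2 genes varied together. Over 70 mouse-class units of 13 classes, the deviations of log2(CPM + 5) from the mean of the class and exposure group had a Pearson correlation of 0.51 (Spearman 0.53). This is a description, because the units of a mouse share a library, its depth and its handling. With deviations taken from the class mean alone, which keeps the exposure difference, it was 0.65. Among 3577 genes with a mean of at least 50 CPM, Cirbp ranked number 29 in likeness to Rbm3, and Rbm3 number 72 in likeness to Cirbp.

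The 5 genes most like Rbm3 by this measure were the chemokine genes Ccl3 (0.64), Ccl4 (0.63) and Cxcl2 (0.61), the ferritin light chain gene Ftl1 (0.60) and the small heat shock protein gene Hspb1 (0.60). Most like Cirbp were Ndufa3, for a subunit of respiratory complex I (0.68), Ssr4, for a subunit of the translocon-associated complex (0.65), the oligodendrocyte transcription factor gene Olig1 (0.65), the immediate early gene Ier2 (0.64) and the inducible heat shock protein 70 gene Hspa1a (0.63). These values are Pearson correlations over the same 70 units. With deviations from the class mean alone, those with Rbm3 were 0.26 for Ccl3, 0.38 for Ccl4, 0.29 for Cxcl2, 0.41 for Ftl1 and 0.19 for Hspb1. Those with Cirbp were then 0.50 for Ndufa3, 0.46 for Ssr4, 0.10 for Olig1, 0.68 for Ier2 and 0.23 for Hspa1a. Of the lists below, the mitochondrial-encoded genes ran opposite to Cirbp, with 12 of 12 correlations below 0 and a median of -0.37, beside a median of 0.09 over all genes ranked. For Rbm3 the list with the highest median was the immediate early genes (0.30 over 15 genes, beside 0.03 over all genes). The heat shock proteins and chaperones had a median of 0.23 with Cirbp, with 4 of 15 correlations below 0. With Rbm3 their median was 0.04, with 5 of 15 below 0.

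Lists of genes around the 2 proteins were followed in the same Pb-against-control fits. In 842 tests of 9 lists in 8 units, 0 passed by edgeR at an adjusted p of 0.05, and 149 (17.7%) had an unadjusted p under 0.05, beside 2359 (4.42%) of all 53420 tests. DESeq2 passed 2 tests, Cryab and Hsp90aa1 in all cells, and limma-voom 0. The lists were chosen with earlier results of these data known. Their tests repeat the same genes over units that share mice, so the counts and shares of each list only describe these fits. The RNA-binding relatives of the 2 genes did not share their direction. Of the glycine-rich and hnRNP A/D-type RNA-binding proteins, 48 of 103 tests were below 0, and the list medians over the units lay between -0.07 and 0.07. Cold shock domain proteins such as YBX1, which also bind RNA, were below 0 in 11 of 31 tests. CLK kinases, whose activity rises when cells cool, and the SR and hnRNP H splicing proteins were below 0 in 68 of 133 tests. In Oligodendrocyte-like cells the smallest p-values among them were those of Srsf5 (-0.38, SE 0.12; 320.4 ± 42.7 CPM in the 4 Pb mice, 413 ± 46.5 CPM in the 4 controls, SD) and Tra2a (0.45, SE 0.17), which had opposite signs, and in Microglia-like cells those of Srsf3 (-0.27, SE 0.13) and Srsf7 (-0.25, SE 0.16). Of the regulators, targets and receptors of RBM3 or CIRBP, 10 of 11 listed genes were in the table and 23 of 52 tests were below 0. This list holds Ntrk2, whose receptor TrkB acts upstream of RBM3, and Rtn3, whose translation RBM3 promotes.

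Clock genes, some of whose transcripts CIRBP binds, were below 0 in 74 of 101 tests, with 7 (6.93%) at an unadjusted p under 0.05, near the share over all genes, 5 of them below 0. Nr1d2 (-0.44, SE 0.20) and Bhlhe40 (-0.57, SE 0.26) had the smallest p in Oligodendrocyte-like cells, and Bhlhe41 (-0.41, SE 0.16) and Clock itself (0.77, SE 0.30; 40.5 ± 11.9 against 21.4 ± 9.52 CPM, n = 4 each) in Microglia-like cells. The time of day at which mice were killed is not given in the labels.

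Heat shock proteins and chaperones fold and refold proteins and are induced by warming and by many stresses. The sign of their Pb-minus-control fold changes was mostly opposite to that of Rbm3 and Cirbp. Of 143 tests, 131 were above 0. An unadjusted p under 0.05 was reached by 68 (47.6%, beside 4.42% of all tests), all above 0. After adjustment 0 passed (smallest edgeR adjusted p = 0.267). The 143 tests repeat the same 20 genes over units of the same mice, and all cells include the other units. The share of 47.6% is thus no count of independent results, and the list as a set was not tested. The list medians ran from 0.22 in Endothelial-like to 0.68 log2 units in Microglia-like cells. The opposite sign describes the exposure groups only. Within class and exposure group the median correlation of the list was 0.23 with Cirbp and 0.04 with Rbm3. In Oligodendrocyte-like cells the smallest p-values were those of Hspa8, the constitutive heat shock cognate (0.49, SE 0.11; 1935 ± 318 against 1367 ± 93.3 CPM), and Hspa1b, an inducible heat shock protein 70 gene (0.81, SE 0.18; 264 ± 72.5 in Pb and 151 ± 22.6 CPM in control mice, n = 4 each, SD). Among Microglia-like cells they were those of the mitochondrial chaperonin gene Hspd1 (0.81, SE 0.18) and the small heat shock protein gene Cryab (0.68, SE 0.15).

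Set beside Rbm3 and Cirbp mouse by mouse, the summed CPM of the 20 heat shock genes in Oligodendrocyte-like cells was 14754, 13948, 18470 and 16282 in Pb F1, F2, M1 and M2 and 11722, 11037, 12405 and 12630 in control F1, F2, M1 and M2. These groups did not overlap, and neither did those of Astrocyte-like cells (5922 to 6174 CPM in 3 Pb and 3483 to 4747 CPM in 3 control mice). In each of the other units the sums overlapped, as in all cells (16502 to 20328 CPM in Pb and 11632 to 16788 CPM in control mice). The share of all genes with every Pb mouse above every control mouse was not computed. Without cluster 15 the sums were 14034 to 18488 CPM in Pb and 11107 to 12405 CPM in control mice, and control M2, at 12141, was then the second highest of the controls. Pb F1, which had the highest Rbm3 of the Pb mice there, was the third of 4 in this sum, and control M2, with the lowest Rbm3 of the controls, had the highest sum of the controls with cluster 15 kept. In Microglia-like cells the sum was 12767 to 24729 CPM in Pb and 10700 to 14072 CPM in control mice, and Pb F1 had both the highest Rbm3 of the Pb mice and the highest sum. Whether handling temperature or stress during dissociation took part in the differences of Rbm3, Cirbp or the heat shock genes was not tested.

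**Figure D4:**
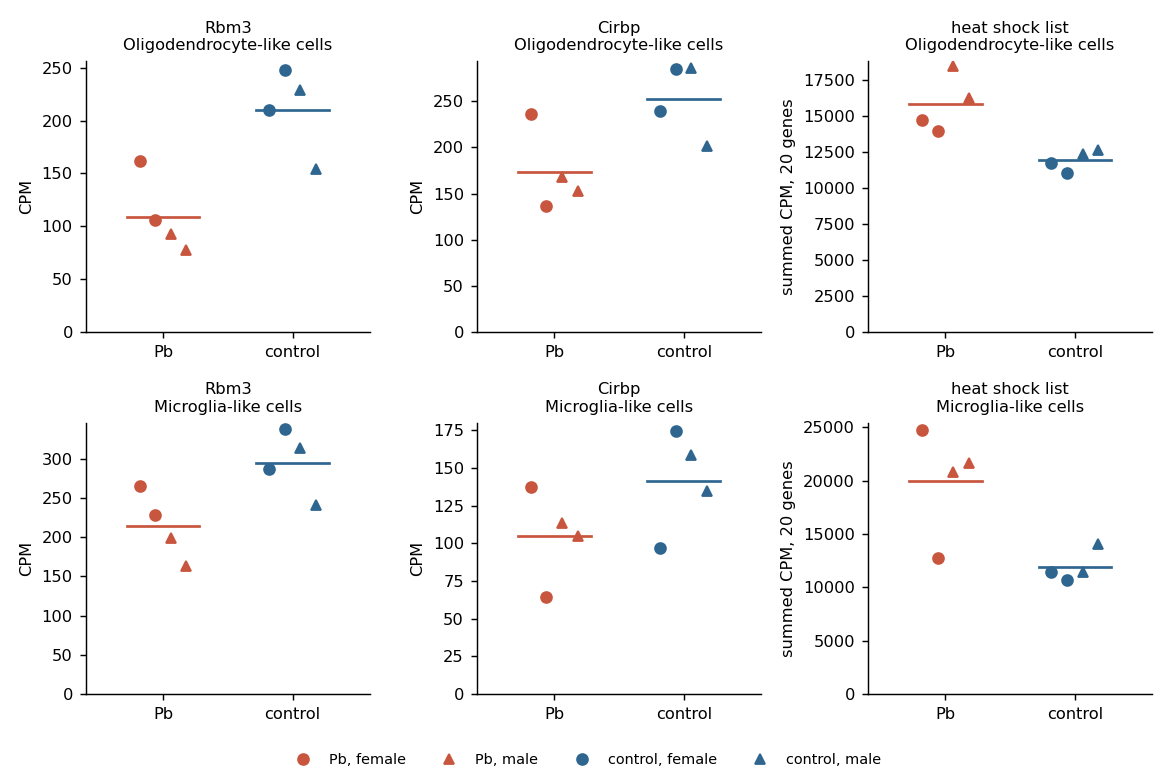
Rbm3, Cirbp and the summed level of 20 heat shock and chaperone genes in CPM by mouse in Oligodendrocyte-like (top) and Microglia-like cells (bottom), with Pb mice in red, control mice in blue, circles for females, triangles for males and bars at group means. The heat shock sum of the 4 Pb mice is above that of the 4 controls in Oligodendrocyte-like cells, where the Rbm3 values of 3 Pb mice are below all controls. In Microglia-like cells the sums of the groups overlap. The share of all genes with every Pb mouse above every control mouse was not computed.

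Lists of other cell states lay as follows. Immediate early genes, which dissociation is known to induce, were below 0 in 98 of 120 tests, and their sum in Oligodendrocyte-like cells was 5620 to 8186 CPM in Pb and 6733 to 8947 CPM in control mice. Mitochondrial-encoded genes were below 0 in 89 of 103 tests, with a sum of 38591 to 45026 CPM in Pb and 40098 to 48444 CPM in control mice in those cells. Hypoxia response genes were above 0 in 40 of 56 tests. None of the 3 lists had a gene that passed by edgeR. At an unadjusted p under 0.05 they had 20 (16.7%), 38 (36.9%) and 5 tests (8.93%), beside 4.42% of all tests. Of the 38 mitochondrial tests 0 were above 0. The part of these lists in the differences of Rbm3 and Cirbp was not tested.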

How the data were processed

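The deposited values are counts: raw UMIs of each gene in each cell of all 8 mice, since all values are whole and library totals differ. The submitters' processing notes name Cell Ranger, Seurat and the build mm10; the sources used here give no versions, roles or filters. Every cell had at least 999 genes and 1137 UMIs, and each gene occurred in 3 or more cells, so the authors had filtered the table. The prefix of a column name gave the mouse (0 columns left over).

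Cells with over 20% mitochondrial UMIs (53) and Scrublet doublets were removed. Cells were clustered with scanpy 1.11.5 (2000 variable genes without Rbm3, Cirbp, list, sex-linked and mitochondrial genes; 30 components, 15 neighbours, Leiden resolution 1.0) and named by listed markers, with naming thresholds set after the data were seen. Counts were summed per mouse and class (at least 10 cells) and fitted over all genes with edgeR 4.0.16 (quasi-likelihood test, TMM factors, filterByExpr, sex and exposure; Benjamini-Hochberg within a unit, threshold 0.05), in units with at least 3 mice per group. DESeq2 1.42.0 and limma 3.58.1 were alternatives. The pipeline was tested on simulated data. Class levels were compared on log2(CPM + 5).

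The genes, lists and tests were chosen with earlier results of these data known. Genes named from a list are the 2 with the smallest p in the Oligodendrocyte-like and Microglia-like classes for the heat shock, splicing and clock lists, where none passed; likeness names the 5 highest correlations. All 28 pairs of libraries differed beyond sampling noise (chi-square per degree of freedom 4.81 to 60.5). Each mouse is 1 replicate. The edgeR tests set a difference against the spread between these mice. The sign-flip tests compare a mean paired difference with those under every change of sign. UMI totals set the precision of each level, from 3 to 599 UMIs of a gene per mouse and fitted class.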

Additional observations from a re-analysis of the deposited data

Results flagged for a closer look

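One value stood far from the others of its group. In cluster 9, which carried haemoglobin and oligodendrocyte-lineage genes, Cirbp in Pb F1 was at 148.6 CPM, while the other 3 Pb mice lay between 66.3 and 73.9 CPM. The gap to the nearest mouse was 0.908 of the group's range, above Dixon's 95% critical value for 4 samples. Of 26 groups examined, 1 was marked, and chance marks about 1 in 20. The value rested on 17 UMIs of Cirbp in 26 cells.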

How the results depend on the processing

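Of 296 values of the Pb-minus-control fold change of Rbm3 and Cirbp under alternative settings, 293 stayed within 1 SD of the mice and 280 were below 0. The exceptions were Rbm3 in Astrocyte-like cells at 0.45 with the replicate block and, leaving out 1 mouse, a range of -0.32 to 0.64. Cirbp there was 0.07 with the block. All 296 values are refits of the same mice in the contrast that chose the genes, so their common sign is no support. The SD between mice of a group ran from 0.20 to 0.75 log2 units, so a value could change sign and stay within it. In Oligodendrocyte-like cells leaving out 1 mouse gave -1.15 to -0.79 for Rbm3 and -0.73 to -0.41 for Cirbp. With no covariate Rbm3 in Neuron-like cells was -0.09. The replicate numbers did not pair the mice: same-numbered mice had deviations correlated at -0.57, -0.16, 0.11 and -0.24 over 9525 genes. No mouse was most like the mouse of its own number in the other group. With the replicate block the exposure fit called 8 tests in place of 1, and 1 list gene in place of 0. It called 32 with DESeq2, 150 with no filter on low counts, 0 with a minimum of 20 cells (4 units), 0 with no covariate and 1 to 16 without 1 mouse. List genes called were 2 with DESeq2, 32 with no filter and 0 to 4 without 1 mouse. The sex fit called 229 with no filter and 25 with a minimum of 20 cells, in place of 48. The exposure-by-sex fit, with 2 calls, gave 8 with DESeq2, 1 with limma-voom, 138 with no filter, 0 with a minimum of 20 cells and 0 to 17 without 1 mouse. The cause of these shifts was not tested. The correlation of Rbm3 with Cirbp was 0.65 with deviations from class means. Rbm3 and Cirbp passed in 0 units for sex or exposure by sex under every setting run. Depth limits Astrocyte-like and Neuron-like cells, with 3 to 95 UMIs of a gene per mouse. It also limits Cirbp in Smooth muscle-like cells (11 to 58 UMIs per mouse) and cluster 7 (16 to 70).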
